A study of Mus musculus with 3 samples.

Results

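The 10 genes described here are transcriptional targets of the glucocorticoid receptor or of the FOXO factors, or take part in that control: *Igfbp1*, *Pck1*, *Pdk4*, *Angptl4*, *Fbxo32*, *Tsc22d3*, *Sgk1*, *Fkbp5*, *Zbtb16* and *Foxo3*. They were taken by name, with earlier results of these same arrays known, and all 24 probe sets annotated to exactly 1 of them were used, out of 34958 probe sets with 1 gene symbol and 18194 genes. Expression was measured in kidney RNA of male C57BL/6J mice aged 16 weeks, on 2 arrays of cardio-renal syndrome mice and 1 array of uninephrectomy alone mice. The cardio-renal mice had the abdominal aorta constricted below the branching of the renal arteries and lost 1 kidney 2 weeks afterwards, whereas the uninephrectomy mice lost 1 kidney only. The series' design text names sham operations, but the labels do not say whether the uninephrectomy mice had a sham banding. In both groups the remaining kidney was taken whole, 6 weeks after the nephrectomy. The comparison addresses what banding adds to the loss of 1 kidney, and the labels do not say whether each array holds 1 mouse.

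Glucocorticoids bind the glucocorticoid receptor, which enters the nucleus, sits on DNA at paired short motifs and raises transcription of its targets. Insulin works in the opposite sense on FOXO factors: through the kinase AKT it keeps them out of the nucleus, so that genes they drive are low after feeding and high in fasting. Several genes, among them *Igfbp1*, *Pdk4*, *Pck1* and *Fbxo32*, answer to both inputs, and in the kidney the proximal tubule makes glucose in fasting while the distal nephron uses *Sgk1* to retain sodium.

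The arrays were close in their overall signal. Median MAS5 signals, which are linear probe set intensities scaled by the authors, were 105.9 and 101.99 on cardio-renal arrays 1 and 2 and 100.1 on the uninephrectomy array. As a sign of RNA quality, the 3' probe set of the actin control read 1.72 and 1.73 times its 5' probe set on the cardio-renal arrays and 1.72 times on the uninephrectomy array. Cardio-renal array 1 stood apart: 6 of 6 male-biased kidney genes were lower in it than in the uninephrectomy array, with a median log2 difference of -2.59, against 0.044 in array 2. The 3 Y-linked genes with a probe set summed to a signal of 2734 and 2577 on the cardio-renal arrays and 2339 on the uninephrectomy array. Of 7 kidney markers with a probe set, 0 lay below the median signal of every array. Heart markers summed to a signal of 1973 and 1394 on the cardio-renal arrays and 319 on the uninephrectomy array, although the tissue is labelled kidney. The part of these features in the results below was not tested, and values are given for each array.

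All 10 genes, each read from its brightest probe set, were higher on both cardio-renal arrays than on the uninephrectomy array, where 30.6% of the 11145 genes kept by the filter on dim signals were. The genes were chosen on this same contrast, so the count describes the choice and is no test of it. Differences are given on the scale of log2(signal + 28.8), on which small signals are damped. Over the 10 genes the median difference was 0.68 for array 1 and 0.77 for array 2, while over all kept genes it was 0.0085 and -0.0028. Members at least 2-fold higher on both arrays were *Igfbp1* and *Zbtb16*, 2 of 10, where the share over all kept genes was 0.135%. Both differences are taken from the same lone uninephrectomy array. In bulk tissue, more RNA per cell and more cells of a type cannot be told apart.

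**Figure D1:**
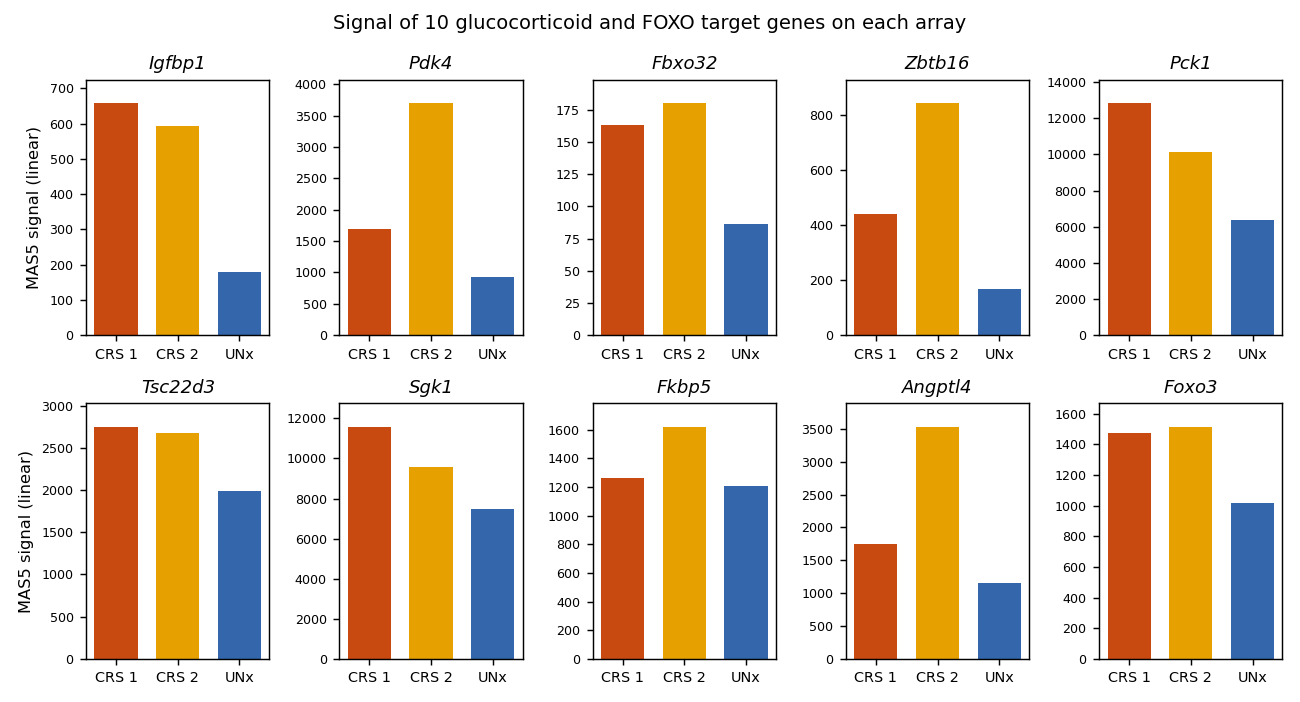
MAS5 signal (linear, from 0) of the probe set used for each gene, with 1 bar per array: cardio-renal arrays 1 and 2 (CRS 1, CRS 2) and the uninephrectomy array (UNx). The uninephrectomy bar is the lowest in all 10 panels; *Pdk4*, *Angptl4* and *Zbtb16* are highest on cardio-renal array 2 and *Igfbp1*, *Pck1* and *Sgk1* on cardio-renal array 1.

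*Igfbp1* encodes a secreted protein that binds insulin-like growth factors, and its transcription is held down by insulin. It lies at chr11:7197787-7202546 (GRCm38.p6) and is read by 1 probe set, whose signal was 658 and 592 on the cardio-renal arrays and 179 on the uninephrectomy array. The cardio-renal arrays lay near each other and well above the uninephrectomy array. The log2 difference was 1.72 for array 1 and 1.58 for array 2, a mean of 1.65 ± 0.10 (SD, n = 2), and the ratio of plain signals was 3.67 and 3.30. Liver is a main source of this transcript in the body, and among the liver markers *Alb*, the albumin gene, had signals of 775 and 338 on the cardio-renal arrays and 217 on the uninephrectomy array. *Apoa1* had 52.5 and 35.5 against 44.0, and *Ahsg* 6.63 and 5.30 against 6.47, below the median signal of each array. *Fgb*, a fibrinogen chain gene, had 162 and 136 against 195.5, lower on both. The 5 liver markers with a probe set summed to 13518 and 14836 against 13889, most of it from *Ttr*, with 12522 and 14321 against 13426. The part of liver RNA in the *Igfbp1* result was not tested. The promoter is shown because it carries the textbook site through which insulin acts on this gene. It spans 250 bases before to 50 bases after the start, on the plus strand of GRCm38.p6 as RefSeq annotates it, chr11:7197537-7197836, and the capitals mark CAAAACA, the core of the insulin response element bound by FOXO factors, 108 bases before the start.
Igfbp1: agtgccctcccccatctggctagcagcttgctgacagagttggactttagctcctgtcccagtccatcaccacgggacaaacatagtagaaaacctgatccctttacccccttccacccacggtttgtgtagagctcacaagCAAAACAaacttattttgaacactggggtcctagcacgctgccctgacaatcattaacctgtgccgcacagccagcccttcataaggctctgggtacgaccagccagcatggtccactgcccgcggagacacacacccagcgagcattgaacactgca

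CAAAACA was found on either strand in 6.28% of 32851 promoter windows of this length, and among the 14 windows of 7 members that had one, only in that of *Igfbp1*. The FOXO consensus GTAAACA was in 3.65% of all windows and in 0 of the 14. These letter matches are descriptions of the windows and say nothing of binding in these kidneys.

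*Pck1* encodes cytosolic phosphoenolpyruvate carboxykinase, the enzyme that commits carbon to gluconeogenesis, and is strongly expressed in the proximal tubule. It lies at chr2:173153073-173159274 (GRCm38.p6). Its brightest probe set had signals of 12849.6 and 10155 on the cardio-renal arrays and 6364 on the uninephrectomy array, a mean log2 difference of 0.84 ± 0.24 (SD, n = 2). The probe set whose name marks shared sequence gave 3728 and 2918 against 1309, a mean of 1.31 ± 0.25. Both of these were higher on either cardio-renal array, and slightly higher on array 1 than on array 2. The dimmest probe set gave 192 and 39.3 against 34.5, so that only array 1 stood away. The *Pck1* promoter is shown for its cyclic AMP response element, the site through which fasting hormones act on this gene, in capitals 93 bases before the start, on the plus strand at chr2:173152823-173153122.
Pck1: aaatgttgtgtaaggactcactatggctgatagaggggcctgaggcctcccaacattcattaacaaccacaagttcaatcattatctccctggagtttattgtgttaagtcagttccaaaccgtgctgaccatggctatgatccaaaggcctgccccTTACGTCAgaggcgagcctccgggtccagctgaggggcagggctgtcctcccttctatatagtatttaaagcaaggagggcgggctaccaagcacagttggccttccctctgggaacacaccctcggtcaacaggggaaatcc

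The form searched, TNACGTCA, was in 2.93% of all windows and in 1 of the 14 windows of the members.

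*Pdk4*, at chr6:5483351-5496278, encodes the kinase that switches off pyruvate dehydrogenase and so spares glucose in fasting. Its 1 probe set had signals of 1693 and 3702 on the cardio-renal arrays and 927 on the uninephrectomy array. Array 2 lay far above the others, and array 1 lay between. The log2 difference was 0.85 for array 1 and 1.96 for array 2, with a mean of 1.41 ± 0.79 (SD, n = 2).

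*Angptl4*, at chr17:33774900-33781575, encodes a secreted inhibitor of lipoprotein lipase that PPAR factors, fasting and glucocorticoids raise. Its bright probe set, with a name that marks shared sequence, gave 1753 and 3534 on the cardio-renal arrays and 1151 on the uninephrectomy array, or 0.59 and 1.59 on the log2 scale. A dim probe set of the same gene gave 13.8 and 28.7 against 10.6, the same order of the arrays at signals under the filter. The order of the 3 arrays was thus that of *Pdk4* in both probe sets. Adipose tissue makes this transcript too, and the adipocyte marker *Adipoq* had signals of 101 and 129.9 on the cardio-renal arrays against 88.6, while *Lpl* had 12344 and 18524 against 18581. The 6 adipocyte markers with a probe set summed to 16847 and 22207 against 22585, most of it from *Lpl*. Of the 6, 2 lay below the median signal of each array. Higher on both cardio-renal arrays were 4, among them *Retn* with 136 and 105 against 77.9 and *Cidec* with 38.4 and 21.7 against 7.72. *Lpl* was lower on both and *Fabp4* had opposite signs. Over all genes with a probe set, 33.6% were higher on both. The part of adipocytes in this result was not tested.

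*Fbxo32* encodes atrogin-1, a ubiquitin ligase subunit known from muscle wasting, and lies at chr15:58175879-58214892. Of its 3 probe sets 1 passed the filter, with signals of 163 and 180.4 on the cardio-renal arrays and 86.3 on the uninephrectomy array, a mean log2 difference of 0.80 ± 0.087 (SD, n = 2). The uninephrectomy signal of that probe set was below the array's median. Of the other 2, dimmer still, 1 gave 37.9 and 47.9 against 28.9 and 1 gave 51.6 and 23.8 against 44.3, this last with array 2 below the uninephrectomy array. Skeletal muscle is the best known source of this transcript. Its markers summed to 361 and 354 on the cardio-renal arrays and 262 on the uninephrectomy array, with 5 of 7 below the median signal on each array. Of these 7, 5 were higher on both cardio-renal arrays, 0 lower on both and 2 of opposite sign. Heart markers, as given above, summed to 1973 and 1394 against 319. Higher on both cardio-renal arrays were 8 of 8, of which 4 were kept by the filter. Among all genes with a probe set the share higher on both was 33.6%. The part of either marker set in this result was not tested.

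*Tsc22d3* encodes GILZ, a leucine zipper protein that carries much of the anti-inflammatory action of glucocorticoids. It lies at chrX:140539528-140600522. Its 2 brightest probe sets gave 2751 and 2679 on the cardio-renal arrays against 1983 on the uninephrectomy array, and 1457 and 1496 against 1147. The cardio-renal arrays nearly coincided in both, at mean log2 differences of 0.45 ± 0.027 and 0.36 ± 0.026 (SD, n = 2). The others did not repeat this: 1 gave 288 and 366 against 300.1, and 1, under the filter, gave 56.9 and 21.1 against 49.8. Of the 3 annotated promoter windows, the 1 with a glucocorticoid receptor hexamer is shown, on the minus strand at chrX:140600473-140600772. The capitals mark TGTTCT, which is AGAACA read on the other strand, 185 bases before the start.
Tsc22d3: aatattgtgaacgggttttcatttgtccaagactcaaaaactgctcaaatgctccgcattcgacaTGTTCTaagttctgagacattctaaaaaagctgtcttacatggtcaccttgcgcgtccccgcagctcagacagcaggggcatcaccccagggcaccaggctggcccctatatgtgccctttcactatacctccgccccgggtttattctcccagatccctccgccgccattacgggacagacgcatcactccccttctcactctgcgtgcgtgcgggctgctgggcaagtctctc

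*Sgk1* encodes a kinase that glucocorticoids and aldosterone induce in the distal nephron, where it keeps the epithelial sodium channel at the cell surface. It lies at chr10:21882184-21999903. The probe set, the only one for this gene, gave 11589 and 9577 on the cardio-renal arrays and 7499 on the uninephrectomy array. Both cardio-renal arrays were above, array 1 by 0.63 and array 2 by 0.35 on the log2 scale, a mean of 0.49 ± 0.19 (SD, n = 2). Of 6 annotated promoter windows of *Sgk1*, the 1 with a whole glucocorticoid response element is shown, on the plus strand at chr10:21993640-21993939, with the element in capitals 189 bases before the start.
Sgk1: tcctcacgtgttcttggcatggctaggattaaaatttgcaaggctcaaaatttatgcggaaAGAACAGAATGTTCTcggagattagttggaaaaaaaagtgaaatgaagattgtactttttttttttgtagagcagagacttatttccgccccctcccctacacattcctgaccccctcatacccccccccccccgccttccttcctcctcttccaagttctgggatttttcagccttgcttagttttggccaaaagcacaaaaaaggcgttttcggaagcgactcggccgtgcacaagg

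The whole element searched, AGAACA followed after a gap of 3 bases by TGTTCT, was in 3 of 32851 windows, or 0.00913%, those of *Acnat2*, *Gm35041* and *Sgk1*. The hexamer AGAACA at its ends, on either strand, was in 19% of all windows and in 4 of the 14 windows of the members, 3 of *Sgk1* and 1 of *Tsc22d3*; both ends of the whole element count among these matches. The PPAR response element, AGGTCA repeated after a gap of 1 base, was in 0.0396% of all windows and in 0 of the 14. A known feature of this receptor is that many of its sites lie far from promoters, outside the windows read here.

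*Fkbp5* encodes FKBP51, a cochaperone that glucocorticoids induce and that lowers the receptor's affinity for hormone. It lies at chr17:28398753-28486149. The brightest probe set gave 1264 and 1622 on the cardio-renal arrays and 1205 on the uninephrectomy array, so that array 1 lay close to the uninephrectomy array and array 2 above both. Its log2 differences were 0.068 and 0.42, the smallest mean of the 10 genes at 0.24 ± 0.25 (SD, n = 2). A further probe set above the filter gave 133 and 246 against 146, with opposite signs on the cardio-renal arrays, at -0.11 and 0.65. The dimmest gave 0.965 and 11.2 against 12.9, and was the 1 of 24 probe sets lower on both cardio-renal arrays.

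*Zbtb16* encodes PLZF, a zinc finger repressor whose transcript is strongly induced by glucocorticoids in many cell types. It lies at chr9:48651797-48836225. The brightest of its 3 probe sets gave 441 and 844 on the cardio-renal arrays and 167 on the uninephrectomy array, or 1.26 and 2.16 on the log2 scale, with the largest mean of the 10 genes, 1.71 ± 0.63 (SD, n = 2). The arrays kept this order in the probe set marked as cross-hybridising, with 187 and 469.8 against 78.5. In the other, 86.0 and 187 against 111, array 1 lay below the uninephrectomy array. Array 2 was the highest array in all 3.

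*Foxo3*, at chr10:42181845-42276695, encodes a FOXO factor whose own transcript glucocorticoids can raise. The brightest of its probe sets gave 1476 and 1515 on the cardio-renal arrays and 1017 on the uninephrectomy array, a mean log2 difference of 0.54 ± 0.026 (SD, n = 2). A neighbouring probe set designed from the same transcript sequence gave 1364 and 1242 against 1081, or 0.26 ± 0.093. The other, under the filter, gave 73.4 and 92.5 against 86.2, with no common direction.

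Across all 24 probe sets, 17 were higher on both cardio-renal arrays, 1 was lower on both and 6 had opposite signs, and over all probe sets with 1 gene symbol 33.9% were higher on both and 29.9% lower. At least 2-fold higher on both were 4 probe sets, those of *Igfbp1*, a pair of *Zbtb16* and 1 of *Pck1*, where the share over all such probe sets was 0.378%. The filter on dim signals was passed by 17 of the 24, and 7 fell under it, where 19496 of 34958 probe sets with 1 gene symbol passed. It uses the mean of the 3 arrays, 2 of them cardio-renal, so a probe set can pass through signals that are high only there. Of those that passed, 1 of *Fbxo32* and 1 of *Zbtb16* had uninephrectomy signals of 86.3 and 78.5, under that array's median of 100.1. For 5 of the 10 genes every probe set was higher on both arrays: *Igfbp1*, *Pdk4*, *Pck1*, *Sgk1* and *Angptl4*, of which 3 have 1 probe set only. The other 5 had at least 1 probe set that went the other way on 1 or both arrays. In *Pck1* and in *Angptl4*, 1 of the probe sets lay under the filter. The share of all genes with every probe set higher on both was not counted, so this number has no background.

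**Figure D2:**
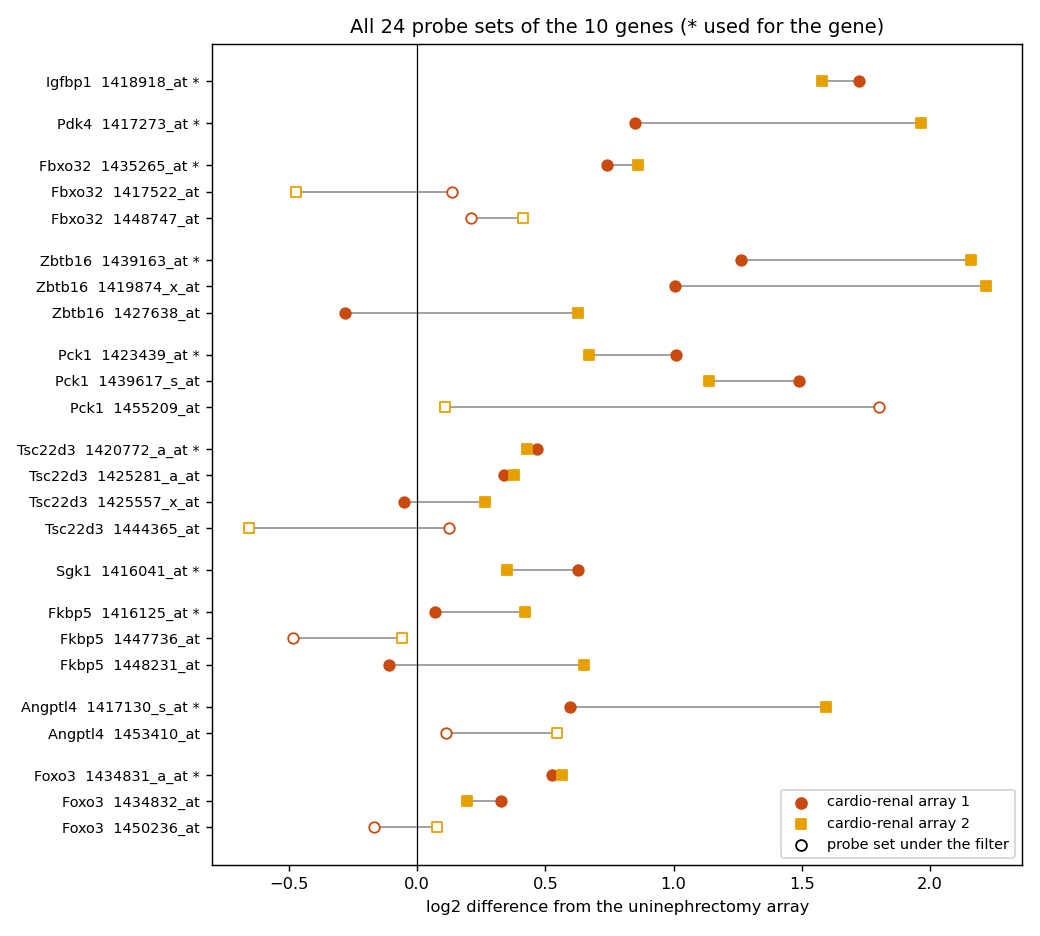
Log2 difference from the uninephrectomy array for every probe set of the 10 genes, circles for cardio-renal array 1 and squares for array 2, open where the probe set fell under the filter; an asterisk marks the probe set used for the gene. Of the 24 pairs, 17 lie wholly right of 0 and 1 wholly left, and 3 of the 7 open pairs lie right of 0, the farthest open symbol being that of *Pck1* at 1.80 on array 1.

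The genes differed in which cardio-renal array was higher. *Pdk4*, *Angptl4* and *Zbtb16* were higher on array 2 than on array 1 by 1.12, 1.0 and 0.89 on the log2 scale. These were the largest differences between the cardio-renal arrays among the 10 genes. *Fkbp5* followed with 0.35, *Fbxo32* with 0.12 and *Foxo3* with 0.037. *Pck1*, *Sgk1*, *Igfbp1* and *Tsc22d3* were lower on array 2 than on array 1, at -0.34, -0.27, -0.15 and -0.038. Over all kept genes the SD of this difference was 0.32 and its median size 0.16. Against the uninephrectomy array the SD was 0.32 for array 1 and 0.24 for array 2, with median sizes of 0.15 and 0.12. The cardio-renal arrays thus lay as far from each other as from the uninephrectomy array. With 1 array each these are values with no test. On array 2 alone, 10 of 10 genes were higher than on the uninephrectomy array, where 49.3% of kept genes were. At least 2-fold higher were 4 of them, where 0.215% of kept genes were. On array 1 alone the counts were 10 of 10, where 51.6% of kept genes were higher, and 3, where 0.476% were at least 2-fold higher. The genes were chosen on this same contrast and both arrays are set against the same uninephrectomy array, so these counts are no test.

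**Figure D3:**
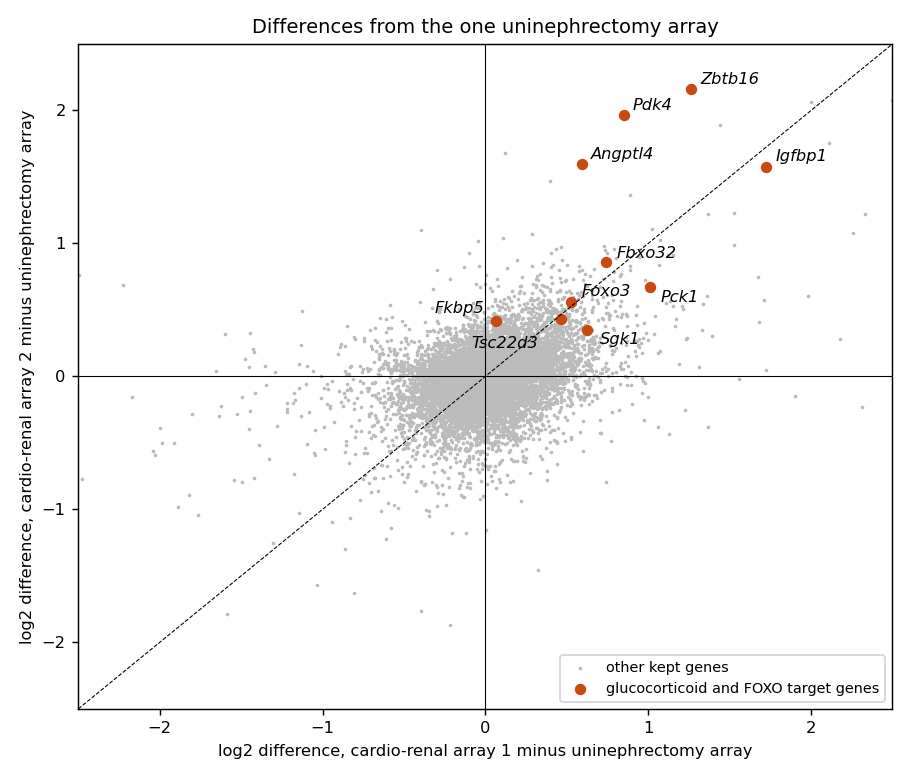
Log2 difference of cardio-renal array 1 (horizontal) and of array 2 (vertical) from the same uninephrectomy array, for 11145 kept genes (grey; 11 lie outside the plotted range) and the 10 genes (orange); the dashed line marks equal differences. All 10 lie in the region above 0 on both axes, with *Pdk4*, *Angptl4* and *Zbtb16* well above the line.

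Genes upstream of these targets were read beside them. The glucocorticoid receptor gene *Nr3c1* had signals of 2265 and 1709 on the cardio-renal arrays and 1948 on the uninephrectomy array, with the arrays on either side of it. The mineralocorticoid receptor gene *Nr3c2* had 377 and 329 against 290.004, higher on both. *Hsd11b1*, which regenerates active glucocorticoid inside cells, had 2727 and 5391 against 6379: array 1 was low, at -1.22 on the log2 scale, and array 2 nearer, at -0.24. This low value stands on the array with the low male-biased genes. *Hsd11b2*, which inactivates glucocorticoid in the distal nephron, had 3073 and 2649 against 2711, and the cochaperone gene *Fkbp4* had 1914 and 2045 against 1956, both without a common direction.

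In the insulin arm, *Irs2*, the insulin receptor substrate that FOXO factors induce in liver, had signals of 187 and 183 on the cardio-renal arrays and 115 on the uninephrectomy array, a mean log2 difference of 0.57 ± 0.020 (SD, n = 2). The cardio-renal arrays coincided and lay above. *Irs1* stood at 0.26 ± 0.056 and the insulin receptor gene *Insr* at 0.24 ± 0.018, higher on both arrays. *Akt1*, a kinase that excludes FOXO from the nucleus, stood at -0.26 ± 0.067, *Pdpk1*, which activates AKT, at -0.19 ± 0.024 and *Igf1r* at -0.13 ± 0.11, lower on both. *Foxo1* stood at 0.28 and 0.022 and *Crtc2*, a coactivator of gluconeogenic genes, at 0.52 and 0.049, higher mainly on array 1. *Akt2*, *Foxo4*, *Pik3r1* and *Sirt1* had opposite signs on the cardio-renal arrays, with means of -0.011, -0.0019, 0.14 and 0.11. Of the 17 regulators kept, 6 were higher on both arrays (35.3%, where 30.6% of all kept genes were) and 4 were lower on both (23.5%, where 29.8% were), with medians of 0.21 on array 1 and 0.0083 on array 2.

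Of 27 kept other genes that glucocorticoids induce, 12 were higher on both cardio-renal arrays (44.4%, where 30.6% of all kept genes were) and 5 were lower on both (18.5%, where 29.8% of all kept genes were), with medians of 0.14 on array 1 and 0.055 on array 2. *Lpin1*, a phosphatidate phosphatase, had signals of 1616 and 1926 on the cardio-renal arrays against 1251, or 0.49 ± 0.18 (SD, n = 2). *Fam107a*, an actin-binding stress protein gene, stood at 0.41 ± 0.070 and the phagocytic receptor gene *Mertk* at 0.29 ± 0.035. *Ddit4*, an inhibitor of mTORC1, went the other way, with 795 and 982 against 1324.

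Among other FOXO-induced genes, 14 of 30 kept were higher on both arrays (46.7%, where 30.6% of all kept genes were) and 6 were lower on both (20.0%, where 29.8% were), with medians of 0.14 and 0.040. *Bcl2l11*, which encodes the cell death protein BIM, had signals of 573 and 523 on the cardio-renal arrays and 337 on the uninephrectomy array, or 0.66 ± 0.088 (SD, n = 2). The cell cycle inhibitor gene *Cdkn1a* had 405 and 594 against 292, higher on array 2 than on array 1. *Tnfsf10*, the death ligand TRAIL, stood at 0.41 ± 0.14 and the growth arrest gene *Gadd45a* at 0.35 ± 0.036. At least 2-fold higher on both arrays were 0 of these genes, as in each of the other lists, where the share over all kept genes was 0.135%.

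*Pdk4* and *Angptl4* are also PPAR alpha targets. Other genes induced by that receptor or by fasting had medians of -0.17 on array 1 and 0.11 on array 2. On array 1, 4 of 13 kept were higher than on the uninephrectomy array, where 51.6% of all kept genes were. On array 2, 10 of 13 were higher, where 49.3% of all kept genes were. On both arrays 3 of 13 were higher (23.1%, where 30.6% of all kept genes were) and 2 lower (15.4%, where 29.8% were). The part of PPAR alpha in the *Pdk4* and *Angptl4* values was not tested. *Cyp4a14*, a fatty acid hydroxylase, had 6832 and 3957 on the cardio-renal arrays against 3036, with array 1 above array 2. *Cpt1a*, which admits fatty acids to mitochondria, stood at -0.18 ± 0.13 (SD, n = 2), the dehydrogenase gene *Acadm* at -0.24 ± 0.26 and the glycerol channel gene *Aqp7* at 0.12 ± 0.013.

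Beside *Pck1*, genes of gluconeogenesis and amino acid catabolism had 5 of 13 kept higher on both (38.5%, where 30.6% of all kept genes were) and 5 lower on both (38.5%, where 29.8% were). *Slc38a3*, a glutamine transporter that feeds renal gluconeogenesis and ammonia production, had signals of 1050.2 and 538 on the cardio-renal arrays and 309 on the uninephrectomy array, or 1.67 and 0.74 on the log2 scale. *G6pc*, the glucose-6-phosphatase that completes the pathway, had 10308 and 14366 against 9200.1, higher mainly on array 2. *Fbp2* stood at 0.23 ± 0.12 and *Bcat2*, a branched-chain aminotransferase gene, at 0.25 ± 0.20 (SD, n = 2).

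Relatives of the members by family gave 5 of 22 higher on both (22.7%, where 30.6% of all kept genes were) and 6 lower on both (27.3%, where 29.8% were), with medians of -0.017 and 0.014. *Igfbp2* had signals of 267 and 132 on the cardio-renal arrays against 112, high on array 1 only, and *Igfbp5* had 7460.2 and 7755 against 10003, lower on both. *Tsc22d1* stood at 0.22 ± 0.065 and *Angptl6* at 0.12 ± 0.010 (SD, n = 2).

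In limma's fit across all 11145 kept genes, 0 genes passed a Benjamini-Hochberg adjusted p of 0.05, and hence 0 in any list; 279 genes, 2.5%, had an unadjusted p under 0.05. The lowest adjusted p of the fit was 0.142. The fit has 1 residual degree of freedom and assumes that the lone uninephrectomy array varies like the cardio-renal pair.

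**Figure D4:**
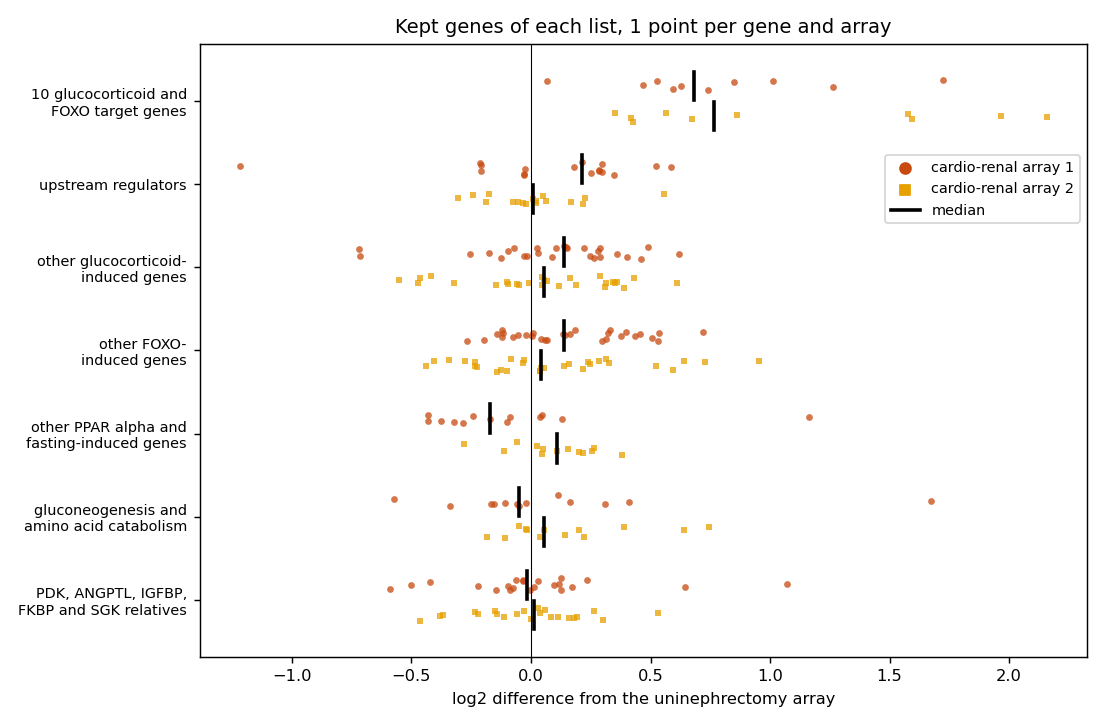
Log2 difference from the uninephrectomy array for the kept genes of each list, circles for cardio-renal array 1 and squares for array 2, with black bars for medians. The 10 chosen genes have medians of 0.68 and 0.77, and the 6 other lists have medians between -0.17 and 0.21.

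By the pair of differences over the 3 arrays, the kept genes nearest to *Igfbp1* were *Atxn7l2*, *Lce1h*, *Myl2*, *Nkx2-6* and *Golga7b*. Their Euclidean distances were 0.40, 0.42, 0.42, 0.50 and 0.56. On the uninephrectomy array they had signals of 72.1, 54.7, 55.9, 43.1 and 27.3, all under its median of 100.1, whereas *Igfbp1* had 179. *Myl2* is 1 of the heart markers, with signals of 337 and 257 on the cardio-renal arrays against 55.9. Nearest to *Pdk4* were *Lce1h*, *Cyp26b1*, *Mid1*, *Depp1* and *Gal3st2*, at distances between 0.60 and 0.88. Of these, *Lce1h*, *Mid1* and *Gal3st2* had uninephrectomy signals of 54.7, 94.1 and 56.6, likewise under that median. *Depp1* had signals of 554 and 1685 on the cardio-renal arrays and 507 on the uninephrectomy array, high on array 2 only. A likeness over 3 arrays has 2 free values and describes these arrays alone.

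The adrenal gland, the source of glucocorticoid, lies beside the kidney, and its markers were read for that reason. Markers of its cortex summed to signals of 341 and 411 on the cardio-renal arrays and 380.2 on the uninephrectomy array, and 6 of 8 lay below the median signal of each array. Of the 8, 2 were higher on both cardio-renal arrays, 3 lower on both and 3 of opposite sign. *Cyp11b1*, the final enzyme of glucocorticoid synthesis, had 43.1 and 37.2 against 11.3, and *Star* 106 and 81.7 against 68.6. Lower on both were *Cyp11b2* with 49.1 and 22.5 against 69.0, *Cyp11a1* with 41.1 and 54.7 against 59.3 and *Hsd3b1* with 5.56 and 5.35 against 7.76. Markers of the medulla summed to 467 and 461 against 335, with *Dbh* at 197 and 190.4 against 115. Of these 5 markers, 3 lay below the median signal of each array. Higher on both cardio-renal arrays were 4, where 33.6% of all genes with a probe set were. The 1 with opposite signs was *Th*, with 5.21 and 46.0 against 26.9. The part of adrenal tissue in the results was not tested. Circulating hormone was not part of the files.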

How the data were processed

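Per the labels' protocols, 250 ng of kidney RNA per array was labelled from the 3' end of transcripts and read on 3 single-colour arrays. The authors deposited intensities on a linear scale, made with MAS5 per the submitters' processing notes (version: not given in the sources used here). Each array's mean trimmed by 2% at both ends was 500.003, so no scaling was added. Subtraction of mismatch probes in MAS5 leaves dim signals noisy, and no detection calls were used.

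Of 45101 probe sets, 34958 had 1 gene symbol in the platform annotation, updated through the Entrez ID to RefSeq GRCm38.p6. A gene was read from the probe set with the highest mean, on log2(signal + 28.8), the offset being the median of the arrays' 25th percentiles. Genes were kept from a mean of 7.02 upward, the median of all probe sets. The fit used limma 3.58.1 in R 4.3.3 (lmFit, eBayes with trend, two-sided) and was tested on simulated data. Array number limits the precision.

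The members and lists were chosen with earlier results of these data known, and the motifs after the windows had been read. Named were all members and regulators, up to 4 kept genes per list with the same sign on both arrays, ranked by the smaller difference, and the 5 genes nearest to *Igfbp1* and to *Pdk4*. Cell type markers were named beside the results they bear on, after their values were seen. Nothing says that the arrays hold separate animals, so a p-value here measures their spread only, which may be technical. Alternatives were the offset, the filter, quantile normalization, the choice of probe set, leaving out either cardio-renal array and limma's variance model.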

Additional observations from a re-analysis of the deposited data

How the results depend on the processing

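No paired analysis was possible because the groups share only 1 replicate number, given in accession order. The median difference of the 10 genes, 0.82 as the mean of both arrays, was 0.92 with an offset of 0, 0.67 with an offset 4 times as large, 0.60 with a mean of probe sets and 0.64 without shared-sequence probe sets, and between 0.68 and 0.77 when either cardio-renal array was left out. *Tsc22d3* then stood at -0.27 without shared-sequence probe sets, because only its dimmest probe set remained. This setting left out every probe set with a name ending in x_at, s_at or a_at. The probe sets used for *Tsc22d3* and *Foxo3* end in a_at and that for *Angptl4* in s_at. In the same setting *Angptl4*, 1.09 otherwise, stood at 0.33 and *Foxo3*, 0.54 otherwise, at 0.26; with a mean of probe sets *Fbxo32* stood at 0.31 in place of 0.80, *Tsc22d3* at 0.16 in place of 0.45 and *Foxo3* at 0.25. The number of the 10 genes higher on both arrays was 9 in both of these settings and 10 with either other offset, with quantile normalization and without either array; it was not counted under the other filters. Over all genes the number at least 2-fold higher on both arrays, 15, was 7 with the larger offset, 74 with no filter, 2 with an upper quartile filter and 9 with a mean of probe sets, and between 24 and 53 with 1 cardio-renal array left out, where only 1 array has to pass. The number at least 2-fold lower, 6, was 3 with the larger offset, 18 with no filter, 3 with an upper quartile filter, 3 without shared-sequence probe sets and between 22 and 69 with 1 array left out. Genes past limma's adjusted p numbered 0 in each fit, variance models included. Of 121 list genes kept, 44 were higher on both arrays and 28 lower, against between 67 and 70 higher and between 51 and 54 lower on 1 array. List medians changed sign in 6 cases: gluconeogenesis (0.047) was -0.018 with no filter, -0.015 with an upper quartile filter and between -0.048 and 0.056 with either array left out; family relatives (-0.036) were 0.045 with a mean of probe sets and between -0.017 and 0.014 with either array left out; PPAR alpha genes (-0.020) were between -0.17 and 0.11. Of the other values (single genes, list medians and shares), 112 moved by less than the spread between arrays or by less than 1.5 times, and 14 moved by more without changing sign. Beyond these, the cause of the shifts was not tested. With 1 uninephrectomy array, its own deviation cannot be separated from the group.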
